A study of Bos taurus with 60 samples.

Results

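The proximal and the distal jejunum of 10 steers were compared in small RNA libraries, with 1 library per region from each animal. The 20 libraries are all of those labelled as either part of the jejunum among 60 libraries from 6 intestinal regions. A miRNA was kept if it had a CPM (its counts scaled to a common library total) above 1 in at least 3 libraries of either region, and 396 of the 608 listed bovine miRNAs met this rule. Of these, 352 passed in both regions, 26 in the proximal jejunum only and 18 in the distal jejunum only, while 212 were left out. In the smallest libraries 1 count was already above 1 CPM, so these numbers also depend on the library totals.

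The steers were British x Continental feedlot animals, whose age is not given in the sources used here. They were 5 non-shedders (NS: NS108, NS152, NS165, NS242 and NS745), with no E. coli O157 found in the feces, and 5 super-shedders (SS: SS274, SS287, SS294, SS299 and SS310), picked for high fecal numbers of that bacterium. By slaughter, according to the paper, only SS310 was still at super-shedder level, and the other SS steers were positive but below it. The paper and the labels name no treatment, and the NS steers were pen-mates of the SS steers. Pieces of intestinal tissue were frozen at slaughter and ground, with the layers taken not stated. The libraries held both epithelial and muscle miRNAs, and fewer cells of a type cannot be told apart from less RNA per cell.

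The jejunum is the long middle part of the small intestine, where villi lined by enterocytes absorb nutrients. MicroRNAs are short RNAs that pair with target transcripts through a seed near their 5′ end and lower the output of those transcripts. Several of them mark cell types: the miR-192, miR-194, miR-215 and miR-200 families mark epithelium, miR-143 and miR-145 smooth muscle and other mesenchymal cells, miR-142 blood-derived cells and miR-375 neuroendocrine cells. Others mark position along the body axis, because they lie inside the HOX gene clusters, whose genes are switched on in order from front to rear in the embryo.

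Library totals ranged from 535373 counts (NS108, distal) to 6569141 (SS299, distal), and a count of 0 therefore allows up to 5.60 CPM in the smallest library and 0.457 CPM in the largest. Totals were higher in the distal jejunum in 7 of 10 steers (exact two-sided sign-flip permutation test of the paired log2 totals, p = 0.586, n = 10 pairs, smallest possible p 0.00195). Both libraries of SS299 stood apart. Their 8 epithelial markers summed to 1512 CPM in the proximal and 2477 CPM in the distal jejunum, against 58740 to 321500 CPM in the 18 libraries of the other steers. In the steer SS287 the epithelial sum was 75410 CPM in the library labelled proximal and 321500 CPM in that labelled distal, the widest gap between the regions within a steer. The pancreatic markers bta-miR-216a, bta-miR-216b and bta-miR-217 summed to at most 5.61 CPM in any library.

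The first question was which miRNAs differ between the upper and the lower jejunum of the same animal. None of the 396 miRNAs passed an FDR of 10% (0%, edgeR quasi-likelihood test with the steer as a block, n = 10 pairs). The smallest adjusted p was 0.643 for bta-miR-2892, followed by 0.974. At an unadjusted p under 0.05 there were 13 miRNAs, 5 higher and 8 lower in the distal jejunum. About 19.8 of 396 would be expected there if no miRNA differed, so the 13 are no more than chance gives. Run on the same pairs, limma-voom called 0 miRNAs, the exact test of edgeR without the block called 0, and DESeq2 called 1 (bta-miR-2892, lower in the distal jejunum, adjusted p = 0.0477). Fold changes were split evenly, with 204 above and 192 below 0 on the log2 scale and a median of 0.02. With library size alone as the scaling, the median was -0.04 and 231 of 396 were below 0.

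How small the differences were could be bounded for the abundant miRNAs. Of the 396 miRNAs, 372 had a fitted difference of less than 2-fold, and for 243 the whole 95% interval of the fold change lay within 2-fold in either direction. This was so for 51 of 56 miRNAs over 1000 CPM and for 70 of 72 between 100 and 1000 CPM. Among miRNAs of 10 to 100 CPM the number was 86 of 106, and under 10 CPM it was 36 of 162. For most of the scarce miRNAs the interval thus left room for a 2-fold difference, and counting error and the spread between steers were not separated.

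**Figure D1:**
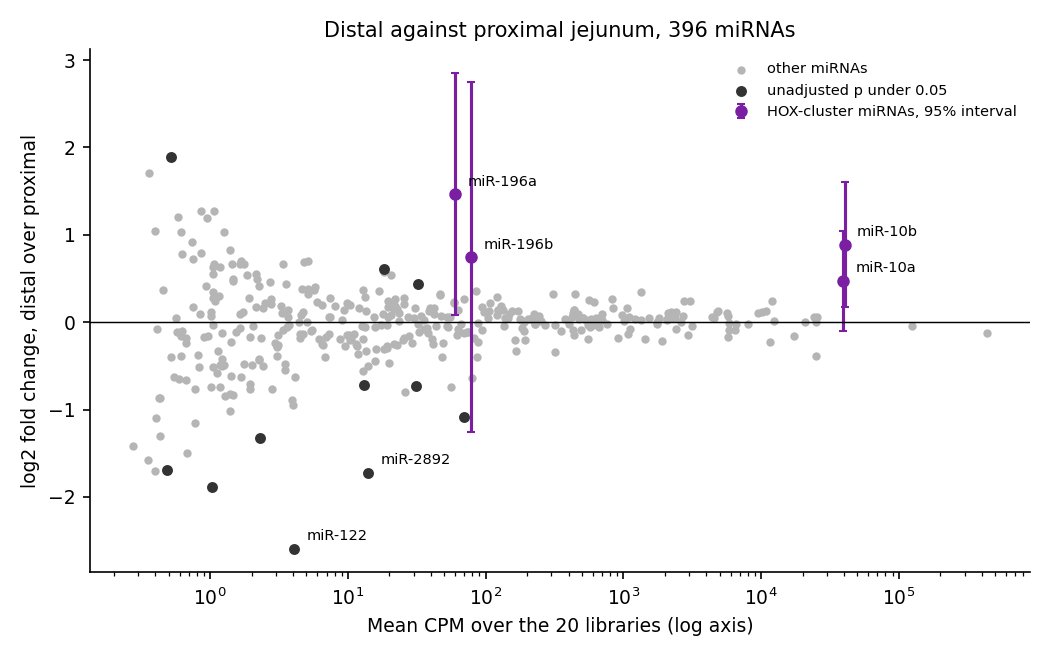
Fitted log2 fold change of distal over proximal jejunum (vertical axis) against the mean CPM over the 20 libraries (horizontal log axis), 1 point per miRNA. The 13 miRNAs with an unadjusted p under 0.05 are dark, apart from bta-miR-10b and bta-miR-196a, which are drawn among the 4 HOX-cluster miRNAs in purple with 95% intervals. The abundant miRNAs to the right lie close to 0, and the fitted values of miR-10a and miR-10b there are 0.48 and 0.89.

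The same 10 miRNAs led both regions. Together they held 78.2% ± 2.97 of the counts in the proximal and 77.5% ± 7.20 in the distal jejunum (mean ± SD, n = 10). bta-miR-143, the smooth muscle miRNA, took 45.3% ± 6.96 of the counts in the proximal and 42.1% ± 13.3 in the distal jejunum, with a log2 fold change of -0.12 (SE 0.247). bta-miR-192, an enterocyte miRNA, took 12.7% ± 5.68 and 12.0% ± 6.70, with a log2 fold change of -0.04 (SE 0.280). Neither difference was larger than the spread between steers.

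Of the other abundant miRNAs, bta-miR-27b was the steadiest, at 25470 ± 2417 CPM in the proximal and 24730 ± 3497 CPM in the distal jejunum. bta-miR-26a averaged 25220 ± 6717 and 25950 ± 8947 CPM, and bta-miR-26c averaged 23710 ± 6264 and 24380 ± 8329 CPM. These family members are near-identical in sequence, so their separate counts are uncertain. bta-miR-21-5p, a miRNA widespread in blood and stromal cells, averaged 20680 ± 8062 and 21250 ± 9559 CPM. bta-miR-215, of the same seed family as miR-192, was lower in the distal jejunum in 7 of 10 steers, with a log2 fold change of -0.38 (SE 0.438). bta-miR-148a was also lower in 7 of 10, by a log2 fold change of -0.16 (SE 0.166). In the order by share, bta-miR-10b stood at rank 4 in the proximal and rank 3 in the distal jejunum, and bta-miR-10a the other way round.

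Of the 56 miRNAs over 1000 CPM, bta-miR-10b and bta-miR-10a, which lie in HOX clusters, had the highest fitted log2 fold changes of distal over proximal jejunum, though no HOX-cluster miRNA passed the FDR over all 10 steers. In the RefSeq annotation of the assembly ARS-UCD2.0, MIR10A lies within HOXB3, MIR10B within HOXD4, MIR196A-1 within HOXB9, MIR196A-2 between HOXC9 and HOXC10, and MIR196B between HOXA10 and HOXA9. All 4 members tested had a higher fitted level in the distal jejunum, with a median log2 fold change of 0.82 against 0.02 over all 396 miRNAs. Of the 4, 2 had an unadjusted p under 0.05, both among the 13 of 396 given above. The direction of all 4 was the same with each of the 3 scalings. Without SS294 the median was 0.54 with 3 of 4 positive, and without the steer as a block it was 1.32, or 1.62 with the exact test.

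In the NS steers bta-miR-10b went from 19915 CPM in the proximal to 67545 CPM in the distal jejunum of NS108, from 34685 to 62645 in NS152, from 9886.5 to 17061 in NS165, from 21050 to 53629 in NS242 and from 11858 to 21428 in NS745. In the SS steers it went from 16112 to 11065 CPM in SS274, from 54588 to 14639 in SS287, from 20652 to 64018 in SS294, from 66083 to 169380 in SS299 and from 16928 to 53688 in SS310. It was higher in the distal jejunum in 8 of 10 steers, with SS274 and SS287 the exceptions, and the ranges of the regions overlapped. The log2 fold change was 0.89 (SE 0.336, 95% interval 0.17 to 1.61, unadjusted p = 0.0182 and adjusted p = 0.974 by the quasi-likelihood test). With each steer left out it ranged from 0.71 to 1.11. Without SS287, one of the steers that went the other way, it was 1.11 (adjusted p = 0.125), while without SS294 it was 0.71 and without NS242 0.79, with unadjusted p of 0.0570 and 0.0527 by the quasi-likelihood test.

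bta-miR-10a ranged from 15700 to 86600 CPM in the proximal jejunum (median 28500) and from 20000 to 76700 CPM in the distal jejunum (median 40800). It was higher in the distal jejunum in 7 of 10 steers, including all 5 NS steers, and lower in SS274, SS287 and SS299. Its log2 fold change was 0.48 (SE 0.269).

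bta-miR-196a, which in mice is known to act on Hox transcripts, was far scarcer. It ranged from 1.01 to 142 CPM in the proximal jejunum (median 12.7) and from 3.75 to 303 CPM in the distal jejunum (median 29.9), and was higher in 7 of 10 steers, with NS745, SS287 and SS310 the exceptions. Its log2 fold change was 1.46 (SE 0.652, unadjusted p = 0.0399, quasi-likelihood test).

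bta-miR-196b varied most between steers. Its median was 4.37 CPM in the proximal and 1.87 CPM in the distal jejunum. It passed 100 CPM in NS152 and SS299 in both regions (197 and 209 CPM, and 158 and 333 CPM) and in the distal jejunum of SS294, at 628 CPM against 1.12 CPM in the proximal jejunum of that steer. The log2 fold change of 0.75 (SE 0.939) was within the error and turned negative without SS294 (-0.07).

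**Figure D2:**
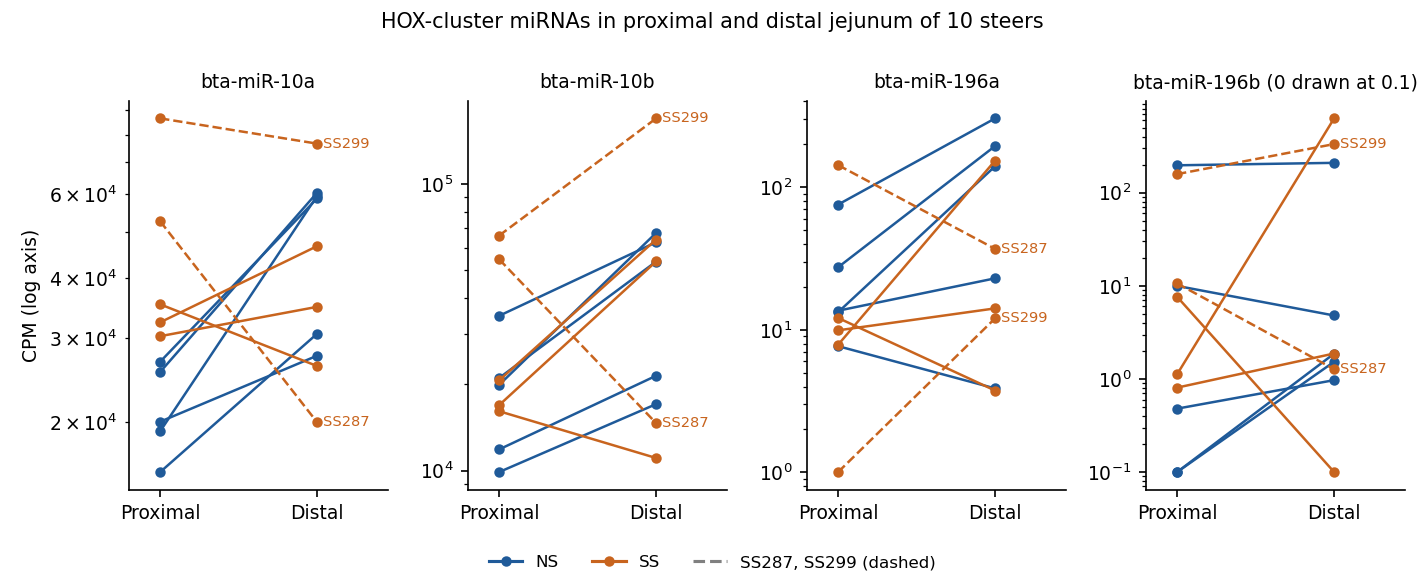
Level of 4 HOX-cluster miRNAs in CPM (log axes) in the proximal and distal jejunum, with a line joining the libraries of each steer. NS steers are blue and SS steers orange, and SS287 and SS299 are dashed. The miR-10a and miR-10b lines of all 5 NS steers go up, while those of SS274 and SS287 go down.

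Cell type markers also differed between the regions within single steers, and their part in these values was not tested beyond the covariate given here. In SS287 the HOX-cluster sum went from 107400 to 34660 CPM where the epithelial sum went from 75410 to 321500 CPM and the muscle sum from 455300 to 168400 CPM. In SS294 the HOX-cluster sum went from 53030 to 111600 CPM, the epithelial sum from 188500 to 58740 CPM and the muscle sum from 423500 to 581400 CPM. The HOX-cluster sum of NS108 went from 46700 to 126600 CPM. There the epithelial sum went from 187300 to 136700 CPM and the muscle sum from 444800 to 264800 CPM. That of NS242 went from 40230 to 113400 CPM, with the epithelial sum from 294600 to 153300 CPM and the muscle sum from 316100 to 425600 CPM. In these steers and in NS152 and NS165 the HOX-cluster and epithelial sums moved in opposite directions. Both rose in NS745 (HOX-cluster 31910 to 48990, epithelial 135900 to 207400 CPM) and SS299 (152800 to 246400, 1512 to 2477 CPM). SS310 also had both rise (47220 to 88580, 210100 to 225700 CPM), while both fell in SS274 (51440 to 37290, 189400 to 157500 CPM). With the log2 ratio of the epithelial to the muscle sum as a covariate, the median log2 fold change of the 4 HOX-cluster miRNAs was 0.90, and that of bta-miR-10b was 0.90 (adjusted p = 0.342).

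Across the intestine the jejunum stood between the duodenum and the cecum for these miRNAs. The duodenal median of bta-miR-10b was 13220 CPM, that of the proximal jejunum 20280 CPM, that of the distal jejunum 53660 CPM and the cecal one 84760 CPM. bta-miR-196a had a median of 0.146 CPM in the duodenum, 12.7 and 29.9 CPM in the jejunum and 259 CPM in the cecum. The level was lower in the duodenum than in the cecum in 10 of 10 steers for each of the 4 miRNAs. Within single steers the full order of duodenum, proximal jejunum, distal jejunum and cecum was kept in 5 of 10 for bta-miR-10b, 5 for bta-miR-196a, 4 for bta-miR-10a and 3 for bta-miR-196b. For bta-miR-10a the main step lay between the duodenum (median 2276 CPM) and the proximal jejunum (28520 CPM), and all 10 steers showed it. For bta-miR-196b the medians stayed under 5 CPM as far as the distal jejunum and reached 713.8 CPM in the cecum.

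**Figure D3:**
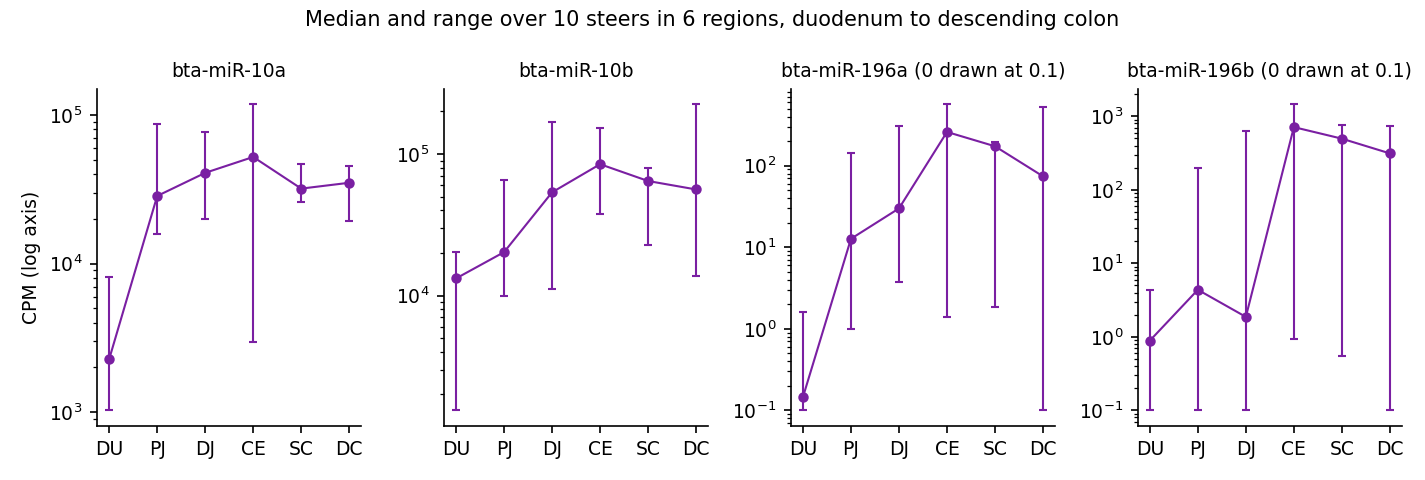
Level of the HOX-cluster miRNAs in CPM (log axes) in the duodenum (DU), proximal jejunum (PJ), distal jejunum (DJ), cecum (CE), spiral colon (SC) and descending colon (DC). Points are medians and bars the lowest and highest of 10 steers, with a level of 0 drawn at 0.1. The median of bta-miR-10b goes from 13220 CPM in the duodenum to 84760 CPM in the cecum with both parts of the jejunum between.

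The steers differed in phenotype, so the region difference was also estimated within each. In the fit of all 20 libraries 0 of 396 miRNAs passed in NS (0%, lowest adjusted p 0.186 by the quasi-likelihood test, with 20 miRNAs at p under 0.05 before adjustment) and 0 in SS (0%, lowest adjusted p 0.731, with 17 such miRNAs). At that unadjusted p about 19.8 of 396 would be expected if no miRNA differed. When the 10 NS libraries were fitted alone, so that the spread of the SS steers did not enter, 6 of 396 passed (1.52%), 4 higher and 2 lower in the distal jejunum. In the 10 SS libraries alone 0 passed (0%, quasi-likelihood test, 11 at an unadjusted p under 0.05, and 0 with DESeq2 and with limma-voom). The median SE of the fold change was 0.36 in the NS fit and 0.416 in the SS fit.

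Of the 6 miRNAs called in the NS libraries, 3 were HOX-cluster miRNAs. bta-miR-10b rose by a log2 fold change of 1.06 (SE 0.220, adjusted p = 0.025, quasi-likelihood test), bta-miR-10a by 1.03 (SE 0.258, adjusted p = 0.0707) and bta-miR-196a by 1.84 (SE 0.445, adjusted p = 0.0623). The first and second were higher in 5 of 5 NS steers and bta-miR-196a in 4 of 5. In the SS libraries alone their log2 fold changes were 0.64 (SE 0.653), -0.14 (SE 0.391) and 0.96 (SE 1.17). The test of the difference between the phenotypes did not pass for any of the 3, with -1.12 (SE 0.460, adjusted p = 0.737) for bta-miR-10a and adjusted p of 0.955 for the others, so a region difference particular to NS steers was not shown for them. In the same NS fit all 8 epithelial miRNAs had a negative log2 fold change, with a median of -0.49, and the part of this in the values above was not tested.

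The other 3 called in NS were bta-miR-874, described below, and bta-miR-2892 and bta-miR-677, both of which fell and which are named after their values were seen. Leaving out 1 NS steer changed the list: 0 miRNAs passed without NS242, 2 without NS152, 4 without NS108, 7 without NS165 and 13 without NS745. DESeq2 called 8 on the same 10 libraries and limma-voom 6.

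Only 1 of 396 miRNAs (0.253%) differed between SS and NS steers in the step from proximal to distal jejunum. This was bta-miR-874, which lies within KLHL3 in ARS-UCD2.0 and is known in human cells to act on AQP3, a water channel of epithelia. In the NS steers it went from 18.5 CPM in the proximal to 119.5 CPM in the distal jejunum of NS108, from 19.9 to 41.9 in NS152, from 5.60 to 21.4 in NS165, from 18.7 to 35.0 in NS242 and from 13.9 to 20.4 in NS745. In the SS steers it went from 19.1 to 12.8 CPM in SS274, from 106 to 22.9 in SS287, from 42.7 to 14.1 in SS294, from 29.9 to 6.39 in SS299 and from 17.7 to 15.6 in SS310.

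All 5 NS steers thus had more of it in the distal jejunum and all 5 SS steers less. It was the only one of the 396 miRNAs with this pattern, with 0 showing its reverse. These signs come from the same values as the test that picked it, so they are no separate support for it. The fitted log2 fold change was 1.35 in NS and -1.22 in SS, and their difference was -2.57 (SE 0.451, adjusted p = 0.0243, quasi-likelihood test). The NS libraries fitted alone gave 1.36 (SE 0.306, adjusted p = 0.0403), while the SS libraries alone gave -1.25 (SE 0.355, unadjusted p = 0.00641, not called). Levels were low, with 415 to 463 counts in all over the 10 libraries of a region. The difference kept its sign without any 1 steer, from -2.78 to -2.28, but its adjusted p was 0.141 without NS108, 0.115 without NS152, 0.103 without NS165 and 0.121 without SS299, each above the FDR of 10%. Across all alternatives run its adjusted p ranged from 5.79e-05 (DESeq2) to 0.256. The 0.256 came without both SS287 and SS299, where the difference was -2.06. The epithelial miRNAs also differed in direction between the phenotypes, as given with the marker lists, and their part in this result was not tested.

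Among the miRNAs lower in the distal jejunum, bta-miR-2892, a miRNA named in cattle, came closest to the threshold. In the NS steers it went from 39.1 to 37.4 CPM in NS108, from 9.20 to 0.962 in NS152, from 42.4 to 5.35 in NS165, from 67.3 to 6.86 in NS242 and from 5.75 to 1.94 in NS745. In the SS steers it ranged from 0 to 33.1 CPM in the proximal (median 2.25) and from 0 to 24.4 CPM in the distal jejunum (median 0.428). It was lower in 9 of 10 steers, with SS299 as the exception, at 0 and 0.304 CPM.

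The log2 fold change of bta-miR-2892 was -1.72 (SE 0.451, unadjusted p = 0.00162, adjusted p = 0.643, quasi-likelihood test). It passed the FDR without SS299 (adjusted p = 0.0772), with DESeq2, and with no filter on low counts (adjusted p = 0.0372), and in the NS libraries alone, where it fell by 2.22 on the log2 scale (adjusted p = 0.0222). Its counts were 243 in all over the 10 proximal and 84 over the 10 distal libraries.

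bta-miR-677 fell by 1.54 on the log2 scale in the NS libraries alone (SE 0.303, adjusted p = 0.0222, quasi-likelihood test) and was lower in 5 of 5 NS steers. Its NS range was 12.9 to 98.5 CPM in the proximal (median 24.0) and 4.33 to 33.6 CPM in the distal jejunum (median 11.6). In SS it had no common direction, with a log2 fold change of 0.04 (SE 0.592) in the SS libraries alone. The difference between the phenotypes was 1.58 (SE 0.779, adjusted p = 0.823).

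**Figure D4:**
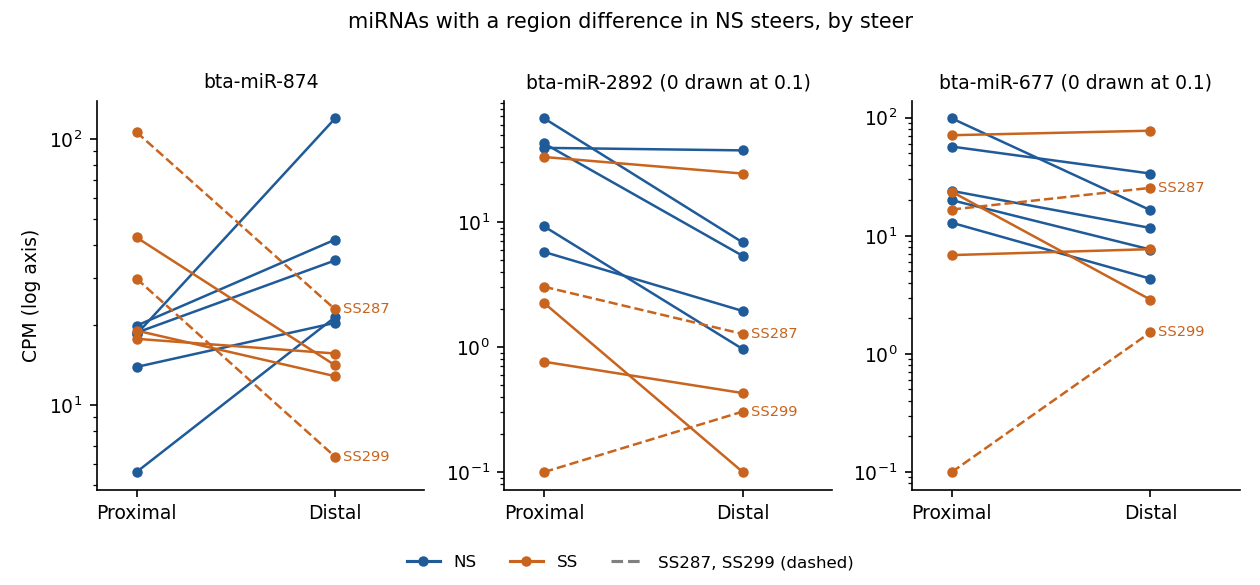
Level of bta-miR-874, bta-miR-2892 and bta-miR-677 in CPM (log axes) in the proximal and distal jejunum, with a line joining the libraries of each steer and a level of 0 drawn at 0.1. NS steers are blue and SS steers orange, and SS287 and SS299 are dashed. The 5 blue lines of bta-miR-874 go up and its 5 orange lines go down, while the 5 blue lines of the other 2 miRNAs go down.

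The remaining miRNAs with an unadjusted p under 0.05 were chosen after their values were seen, and none passed the FDR. bta-miR-2424, located within NCAPD2, was lower in the distal jejunum in 9 of 10 steers, with medians of 9.43 and 5.34 CPM and a log2 fold change of -0.72 (SE 0.235). bta-miR-2890 was lower in 7 of 10 (medians 54.4 and 37.9 CPM, log2 fold change -1.08, SE 0.453), and bta-miR-2411-3p in 8 of 10 (medians 23.1 and 17.0 CPM, log2 fold change -0.73, SE 0.306). These miRNAs and bta-miR-2892 had their highest regional median in the proximal jejunum: the median of bta-miR-2890 was 8.15 CPM in the duodenum and 3.33 CPM in the cecum. The median of bta-miR-2892 was 0.548 CPM in the duodenum, 7.48 and 1.61 CPM in the proximal and distal jejunum, and at most 1.12 CPM in the cecum and the colon.

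Higher in the distal jejunum were bta-miR-455-3p, known from mouse cartilage and fat (26.8 ± 8.07 against 38.3 ± 23.6 CPM, log2 fold change 0.44, SE 0.195), and bta-miR-504 (12.6 ± 5.75 against 24.2 ± 27.6 CPM, log2 fold change 0.61, SE 0.286). Each was higher in 8 of 10 steers. The liver miRNA bta-miR-122 was at 51.9 CPM in the proximal jejunum of NS152 and 12.4 CPM in that of SS294, and at most 3.88 CPM in all other libraries. Its log2 fold change of -2.59 (SE 1.06) rested on 162 counts in the proximal and 10 in the distal jejunum.

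The last of them were scarce. bta-miR-383 had 102 and 31 counts over the proximal and the distal libraries, with medians of 1.56 and 0.909 CPM, a highest level of 12.6 CPM in the proximal jejunum of SS299, and a log2 fold change of -1.33 (SE 0.525) that was -0.93 without SS299. bta-miR-1434-3p had 17 and 4 counts, bta-miR-7858 11 and 4, and bta-miR-2466-3p 3 and 15. No fold change is given for these 3, which had at most 17 counts in all in a region.

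Markers of cell types had no member past the FDR in any list, while their sums differed between the regions within single steers. The 8 epithelial miRNAs had a median of 188200 CPM in sum in the proximal jejunum and 150600 CPM in the distal jejunum, with ranges that overlapped widely, and the sum was higher in the distal jejunum in 4 of 10 steers. Of these miRNAs 0 of 8 passed the FDR, 5 had a positive and 3 a negative log2 fold change, and the median was 0.10. bta-miR-194 averaged 5980 ± 3357 and 5731 ± 3825 CPM, and bta-miR-200b 2769 ± 1588 and 2777 ± 1545 CPM.

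Within the phenotypes the epithelial miRNAs had opposite signs. Fitted alone, the NS libraries gave a negative log2 fold change for 8 of 8 (median -0.49) and the SS libraries a positive one for 7 of 8 (median 0.83), with 0 called in either. The difference between the phenotypes was positive for 8 of 8, with a median of 1.24 against -0.04 over all 396 miRNAs, and for none of them did it pass the FDR. bta-miR-429, of the miR-200 family that holds epithelial cells in their state, was picked after its values were seen and had the smallest p of the 8, with a difference of 1.58 (SE 0.478, adjusted p = 0.657, quasi-likelihood test). All 8 were counted in the same libraries, so their signs are not independent, and the pattern leaned on SS287 and SS299. Without both steers 5 of 8 were positive and the median was 0.30.

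The sum of the 10 listed muscle miRNAs had a median of 451400 CPM in the proximal and 440400 CPM in the distal jejunum. Most of it was bta-miR-143, with medians of 447000 and 437000 CPM. Of the 6 tested muscle miRNAs 0 passed, and their median log2 fold change was -0.04. bta-miR-145, which shares a locus with miR-143, averaged 2104 ± 1373 and 1693 ± 1018 CPM, and bta-miR-133a, a striated muscle miRNA, 558.5 ± 258 and 540.3 ± 236 CPM. Of the 10 listed muscle miRNAs bta-miR-133c and bta-miR-208a had no count.

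Leukocyte miRNAs were led by bta-miR-142-5p, at 7584 ± 4324 CPM in the proximal and 8452 ± 6206 CPM in the distal jejunum. Their sum ranged from 351 to 20740 CPM and from 178 to 27920 CPM, with SS299 lowest in both regions, 0 of 5 passed and the median log2 fold change was -0.02. bta-miR-375, of endocrine cells, averaged 2862 ± 1301 and 3237 ± 1877 CPM, and 0 of 3 neuroendocrine miRNAs passed. The endothelial pair, bta-miR-126-5p and bta-miR-126-3p, summed to a median of 7305 and 7238 CPM. Of the 3 erythrocyte miRNAs 0 passed, with 1 positive and 2 negative log2 fold changes and a median of -0.64. The most abundant, bta-miR-486 (mean 434 CPM over both regions), had the positive value, 0.105. bta-miR-451 was at 103 ± 128 and 56.3 ± 43.6 CPM. The sum of the 3 had a median of 351.6 CPM in the proximal and 418.2 CPM in the distal jejunum. This sum was higher in the distal jejunum in 5 steers and lower in the others.

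**Figure D5:**
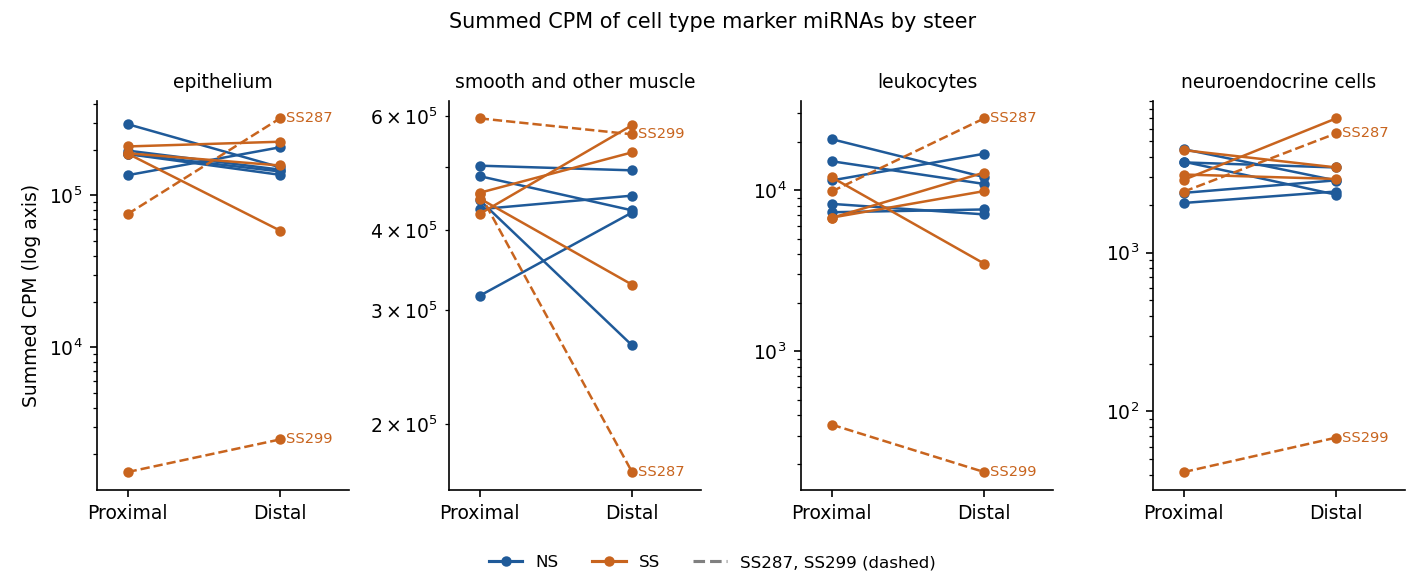
Summed CPM of marker miRNAs (log axes) of epithelium, muscle, leukocytes and neuroendocrine cells in the proximal and distal jejunum, with a line joining the libraries of each steer. NS steers are blue and SS steers orange, and SS287 and SS299 are dashed. SS299 lies far below the other steers for all but the muscle miRNAs, and SS287 goes from 75410 to 321500 CPM for epithelium.

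The 14 miRNAs of the miR-17-92 cluster and its relatives, which promote growth of cells, had no member past the FDR between the regions (0 of 14, 12 positive and 2 negative, median log2 fold change 0.11, and 10 positive with library size alone). Their difference between the phenotypes was negative for 14 of 14, with a median of -0.37 against -0.04 over all miRNAs, and 0 passed. Fitted alone, the NS libraries had 12 of 14 positive (median 0.28) and the SS libraries 13 of 14 negative (median -0.21). All 14 were counted in the same libraries, so their signs are not independent of each other. bta-miR-92a, the most abundant, averaged 9425 ± 3328 CPM in the proximal and 12410 ± 10610 CPM in the distal jejunum. The sum of the 14 had medians of 14790 and 15410 CPM and was higher in the distal jejunum in 5 of 10 steers. Its highest value, 49520 CPM, was in the distal library of NS108, the smallest library. Without SS287 and SS299 the difference stayed negative for 14 of 14 (median -0.31), while it was negative for 12 of 14 without NS152 or without SS294.

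Other families were close to the median of all miRNAs in the difference between the regions. The 10 let-7 members, which hold back growth in differentiated cells, had a median log2 fold change of 0.01, and the sign of that median turned with the other scalings (-0.02 and -0.04). The 7 miR-30 members had a median of 0.13, the 4 miR-181 members 0.19 and the 4 miR-378 members -0.14, all of one sign for miR-181 and miR-378. The 35 tested miRNAs of the imprinted cluster on chromosome 21 had 11 positive and 24 negative values and a median of -0.13. The 27 tested members of the miR-2284 and miR-2285 family, a large bovine family, had a median of 0.04 with 14 positive. None of these passed the FDR.

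The miRNAs that the study names for the jejunum were measured in both parts, and 0 of 8 passed. bta-miR-99b averaged 5535 ± 6374 CPM in the proximal and 5817 ± 5489 CPM in the distal jejunum, and bta-miR-100 5516 ± 9959 and 5920 ± 8633 CPM. SS299 was the highest library for both in each region, with bta-miR-100 at 33500 and 28300 CPM. bta-miR-99a-5p averaged 1319 ± 2531 and 840.7 ± 891 CPM.

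Lower in level were bta-miR-18a, with medians of 37.9 and 36.6 CPM, bta-miR-409a, with 16.6 and 12.5 CPM and a log2 fold change of -0.19 (SE 0.316), and bta-miR-378b, with 6.43 and 8.0 CPM. bta-miR-2284d had medians of 1.67 and 1.33 CPM and bta-miR-2284j of 1.32 and 1.12 CPM. bta-miR-378b was at 5.28 to 112 CPM in NS and 1.17 to 7.58 CPM in SS steers in the proximal jejunum, and at 5.82 to 110 CPM and 1.52 to 10.2 CPM in the distal jejunum, so the highest levels were those of NS steers in both parts.

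The distance between the regions of a steer was about that between steers. Over the 234 miRNAs above 10 CPM, the median absolute log2 difference between the proximal and the distal library of a steer ranged from 0.246 (SS274) to 0.713 (SS287), with a median of 0.455. Between libraries of different steers the median was 0.449 in the proximal and 0.509 in the distal jejunum (45 pairs each), and 0.402 and 0.480 without SS299. Differences of more than 4-fold were seen for 0 of 234 miRNAs in SS310 and for 19 each in SS287 and SS294.

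The number of miRNAs above 1 CPM was 340.7 ± 28.0 in the proximal and 331.4 ± 29.9 in the distal jejunum (n = 10), with 5 of 10 steers higher in the distal jejunum (exact two-sided sign-flip permutation test, p = 0.406). This number depends on depth, since 1 count was above 1 CPM in the proximal libraries of NS242, SS287 and SS294 and the distal ones of NS108 and SS287. With all libraries thinned to the smallest total it was 337.6 ± 17.2 and 333.6 ± 32.2 (same permutation test, p = 0.568).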

How the data were processed

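The authors quality filtered the reads, counted miRNAs with sRNAtoolbox under its default settings, and deposited whole-number read counts per miRNA and library. Genome build and miRNA release: not given in the sources used here. CPM used the library total. The 20 jejunal libraries were fitted in R 4.3.3 by the quasi-likelihood method of edgeR 4.0.16 with the steer as a block and TMM scaling, and p-values were adjusted by Benjamini-Hochberg over 396 miRNAs (FDR of 10%). Alternatives used limma 3.58.1, DESeq2 1.42.0 and, after the methods of the study, the edgeR exact test. Both libraries of a steer come from 1 animal according to the labels: same-steer deviations correlated from -0.27 to 0.869 (mean 0.291, 9 of 10 positive), against a mean of -0.024 between different steers. All pairs of libraries of a region and phenotype differed by more than sampling noise (chi-square over its degrees of freedom at least 43.9). The 95% intervals of fold changes come from the fit and include the spread between steers, while limits of detection cover counting error only, since reads carry no molecular identifiers. Named miRNAs were the 10 most abundant, up to 4 of each of 25 lists by level, those the study names for the jejunum, and those past an FDR, and any other is said to be chosen after its values were seen. The miRNAs and lists were chosen with earlier results of these data known. Gene neighbours came from RefSeq (ARS-UCD2.0), where 30 of 30 miRNAs looked up were matched.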

Additional observations from a re-analysis of the deposited data

Results flagged for a closer look

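A library lying far from the other 9 of its region, or a steer far from the other 9 in its distal to proximal difference, was looked for in 52 groups of values, where chance gives about 1 in 20. There were 13 such cases, and 9 of the 11 that concern a summed marker level or a total were libraries of SS299. Its epithelial markers summed to 1512 CPM (proximal) and 2477 CPM (distal), its leukocyte markers to 350.9 and 178.3 CPM and its neuroendocrine markers to 41.6 and 68.5 CPM. Its totals were the highest, at 5961690 and 6569141 counts (5.96 and 6.57 on a scale of 1e+06 counts). Its mesenchymal markers summed to 1263 CPM in the distal jejunum, a log2 difference of -1.44 from its proximal jejunum. The erythrocyte markers were highest in the proximal jejunum of SS287 (1666 CPM) and in the distal jejunum of NS108 (1489 CPM). bta-miR-196b had a log2 difference of 8.60 in SS294, with 0.5 CPM added to both levels. For bta-miR-874 the step from proximal to distal jejunum differed between SS and NS steers (adjusted p = 0.0243, edgeR quasi-likelihood test, down in 5 of 5 SS and up in 5 of 5 NS steers).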

How the results depend on the processing

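Over all steers the number of miRNAs past the FDR was 0, and it was 1 with DESeq2, 1 with no filter and 0 to 1 with each steer left out (1 without SS299), each time bta-miR-2892. It was 0 with no replicate block and with the other alternatives run. For the difference between SS and NS steers it was 0 to 1 with each steer left out, and 0 without SS287 and SS299, a choice made after seeing the data. In NS it was 0 to 1 with each steer left out of all 20 libraries and 6 in the NS libraries alone. With choices made after seeing the data, the NS libraries alone gave 8 by DESeq2, 6 by limma-voom, 6 with library size alone and 6 with RLE, and with a steer left out 4 (NS108), 2 (NS152), 7 (NS165), 0 (NS242) and 13 (NS745). In SS it was 0 throughout. The causes were not tested.

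The paired difference in detected miRNAs of -9.3 was 2.0 for at least 1 count and -15.1 to -3.11 with each steer left out, and that in log2 library totals of 0.17 was -0.024 to 0.34. The log2 fold change of bta-miR-143 turned to 0.069 with no replicate block, 0.11 with the exact test and 0.072 with 60 libraries in 1 fit. With each steer left out, that of bta-miR-192 was -0.27 to 0.066 and that of bta-miR-196b -0.067 to 1.27. In SS that of bta-miR-10a was -0.45 to 0.22, of bta-miR-196a -0.056 to 2.03 and of bta-miR-677 -0.44 to 0.57. In the SS libraries alone bta-miR-10a turned to 0.041 without SS274 and 0.28 without SS287, bta-miR-196a to -0.057 without SS294, and bta-miR-677 to -0.076 without SS287 and -0.42 without SS299. Intervals were widest for the scarce miRNAs, of which 162 of 396 were under 10 CPM.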
